A study of Mus musculus with 346 samples.

Results

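Mt1 and Mt2 are the metallothionein genes described here, 2 of the 20474 genes measured in single cells from mouse embryos on 6 plates. They were chosen by name from measured values of these same cells, in which Mt1 had set cells of 1 plate apart, so their levels are given as a description without a test. Green cells were sorted by flow cytometry from Tg(Prox1-EGFP) embryos, whose transgene puts green fluorescent protein under the control of Prox1, a transcription factor of early liver and pancreas, and each cell was sequenced by the full-length method Smart-seq2. All cells carried this transgene. Plate 1A held 82 cells labelled foregut of embryonic day 8.5 (E8.5), plates 2A and 2B held 48 and 38 cells of the E10.5 dorsal pancreas, plate 3 held 27 cells of the E10.5 ventral pancreas, plate 5A held 78 cells of the E10.5 liver, and plate 4A held 73 cells of the E14.5 pancreas. The labels name neither an animal nor a sex, and do not say whether embryos were pooled, so each plate counts as 1 sample and differences between plates have no replicate check. The transgene marks any cell that makes the reporter, so a plate can hold several cell types.

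Metallothioneins are small, cysteine-rich proteins of the cytosol that bind zinc and copper and also take up cadmium. Mt1 and Mt2 are made in many tissues, are abundant in fetal liver, and are switched on by the zinc-sensing transcription factor Mtf1, which binds metal response elements in their promoters. Mt3 is known mainly from brain and Mt4 from stratified epithelium.

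Both genes lie side by side on mouse chromosome 8 (GRCm38, GENCODE M21), on the plus strand. Mt2 spans 94172664 to 94173568, Mt1 spans 94179082 to 94180327, and 5513 bp separate them. Each has 3 exons, with a transcript of 511 bases for Mt2 and 549 bases for Mt1. The longest run of bases that both transcripts share is 20. How many reads could fit both genes was not tested.

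The promoter windows are shown because the neighbours have the same kind of element near their starts while their levels differ. RefSeq windows on GRCm38.p6 were searched on both strands for the core of the metal response element, spelled TGCACNC or TGCGCNC. Capitals mark each match, and a match on the minus strand reads as its reverse complement. The long stretches end just before the first annotated start, and the short ones hold the matches after it.
Mt2, chr8:94172368-94172617, plus strand: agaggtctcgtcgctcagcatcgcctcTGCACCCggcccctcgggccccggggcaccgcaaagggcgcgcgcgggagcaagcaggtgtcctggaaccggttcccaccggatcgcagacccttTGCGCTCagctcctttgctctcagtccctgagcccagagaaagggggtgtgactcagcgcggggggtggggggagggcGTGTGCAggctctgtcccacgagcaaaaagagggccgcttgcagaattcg
Mt2, chr8:94172618-94172628, plus strand: ggtcGTGCGCA
Mt1, chr8:94178839-94179081, plus strand: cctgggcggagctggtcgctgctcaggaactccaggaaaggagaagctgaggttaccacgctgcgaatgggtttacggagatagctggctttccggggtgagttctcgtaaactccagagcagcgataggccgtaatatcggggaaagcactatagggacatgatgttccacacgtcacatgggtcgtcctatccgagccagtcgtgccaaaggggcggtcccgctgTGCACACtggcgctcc
Mt1, chr8:94179087-94179115, plus strand: gctcTGCACTCcgcccgaaaagTGCGCTC
The Mt2 window held 4 matches and the Mt1 window held 3, none of them overlapping another. Of 32851 promoter windows of the same 300 bases, 25.7% held at least 1 match, 1.97% held at least 3 and 0.517% held at least 4. The windows of Mt3 and Mt4 held 1 match each. A second motif, TGACNNNGC, the core of the antioxidant response element, matched once in the Mt2 window, not in the Mt1 window, and in 12.4% of all windows. These matches describe the letters only. The windows of 300 bases were placed by the RefSeq start and no bases beyond them were searched. The counts are therefore not totals for either promoter, and 4 against 3 does not compare the promoters. Whether TGACNNNGC occurs just past the Mt1 window was not searched.

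Values are log2(normalized reads + 1), where an entry with no read counts as 0, and a gene counts as detected from 5 normalized reads upward. The cells had between 510222 and 3431728 reads, with plate medians from 811359 in plate 4A to 2510704 in plate 5A, and medians of 2813 to 5794 detected genes. The labelled tissues were checked against marker lists, a cell counting for a list when at least 3 of its markers were detected. Epithelial markers were found in 43 of 48 cells of plate 2A, 27 of 38 of plate 2B and 27 of 27 of plate 3, and hepatoblast markers in 49 of 78 cells of plate 5A. In plate 1A, 59 of 82 cells had neural tube markers and Epcam was detected in only 12, and in plate 4A, 58 of 73 cells had mesenchyme markers. Levels in those plates are levels of such mixtures.

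Mt1 was highest in plate 2A. There its level ran from 0 to 11.72 with a median of 7.71, and the mean was 6.80 ± 3.82 (SD over 48 cells). In plate 1A it ran from 0 to 8.25 with a median of 2.60, and the mean was 2.89 ± 3.00 (SD over 82 cells). In the other plates the median cell had none. The means there were 2.30 ± 3.45 in plate 2B, 1.52 ± 2.66 in plate 3, 1.10 ± 2.75 in plate 5A and 0.20 ± 1.22 in plate 4A (SD over cells), with highest cells at 9.59, 7.49, 11.23 and 8.81. The ranges of all 6 plates overlap, since every plate held cells at 0 and cells above 7. In this order of means, only the first step, from plate 2A to plate 1A, exceeded the SD of either plate. Each later neighbour lay within 1 SD of the one before.

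With detection from 5 normalized reads, the share of cells with Mt1 followed the same order. It was 38 of 48 in plate 2A (79.2%, exact Clopper-Pearson 95% interval 65 to 89.5), 41 of 82 in plate 1A (50%, 38.7 to 61.3) and 12 of 38 in plate 2B (31.6%, 17.5 to 48.7). It was 7 of 27 in plate 3 (25.9%, 11.1 to 46.3), 11 of 78 in plate 5A (14.1%, 7.26 to 23.8) and 2 of 73 in plate 4A (2.74%, 0.334 to 9.55). The intervals cover counting error only, because amplified reads are not independent molecules and a plate is 1 sample. The interval of plate 2A lay above those of all 5 other plates, including plate 2B with the same labels. With each cell thinned to 500000 reads, Mt1 was found in 38, 41, 12, 7, 10 and 2 cells in that order, the same counts except in plate 5A, the most deeply read plate, where the count was 11 without thinning. At a level of 5 or more, Mt1 was found in 26 of 82 cells of plate 1A and 12 of 38 of plate 2B, nearly equal shares.

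Mt2 was lower than Mt1 in every plate. Its mean was 2.88 ± 2.77 in plate 2A, 1.02 ± 1.76 in plate 2B, 0.77 ± 1.35 in plate 1A, 0.45 ± 1.12 in plate 3, 0.08 ± 0.61 in plate 5A and 0.06 ± 0.56 in plate 4A (SD over cells). It was detected in 23 of 48 cells of plate 2A (47.9%, 33.3 to 62.8), 16 of 82 of plate 1A (19.5%, 11.6 to 29.7), 7 of 38 of plate 2B (18.4%, 7.74 to 34.3), 3 of 27 of plate 3 (11.1%, 2.35 to 29.2), 1 of 78 of plate 5A (1.28%, 0.0325 to 6.94) and 1 of 73 of plate 4A (1.37%, 0.0347 to 7.40). The intervals of plates 2A and 2B overlap by a narrow margin. Of the rest of the family, Mt3 was detected in 1 Mt1-high cell of plate 2A and in 1 cell of plate 1A without Mt1. Mt4 was not among the genes measured, so it has no level here.

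**Figure D1:**
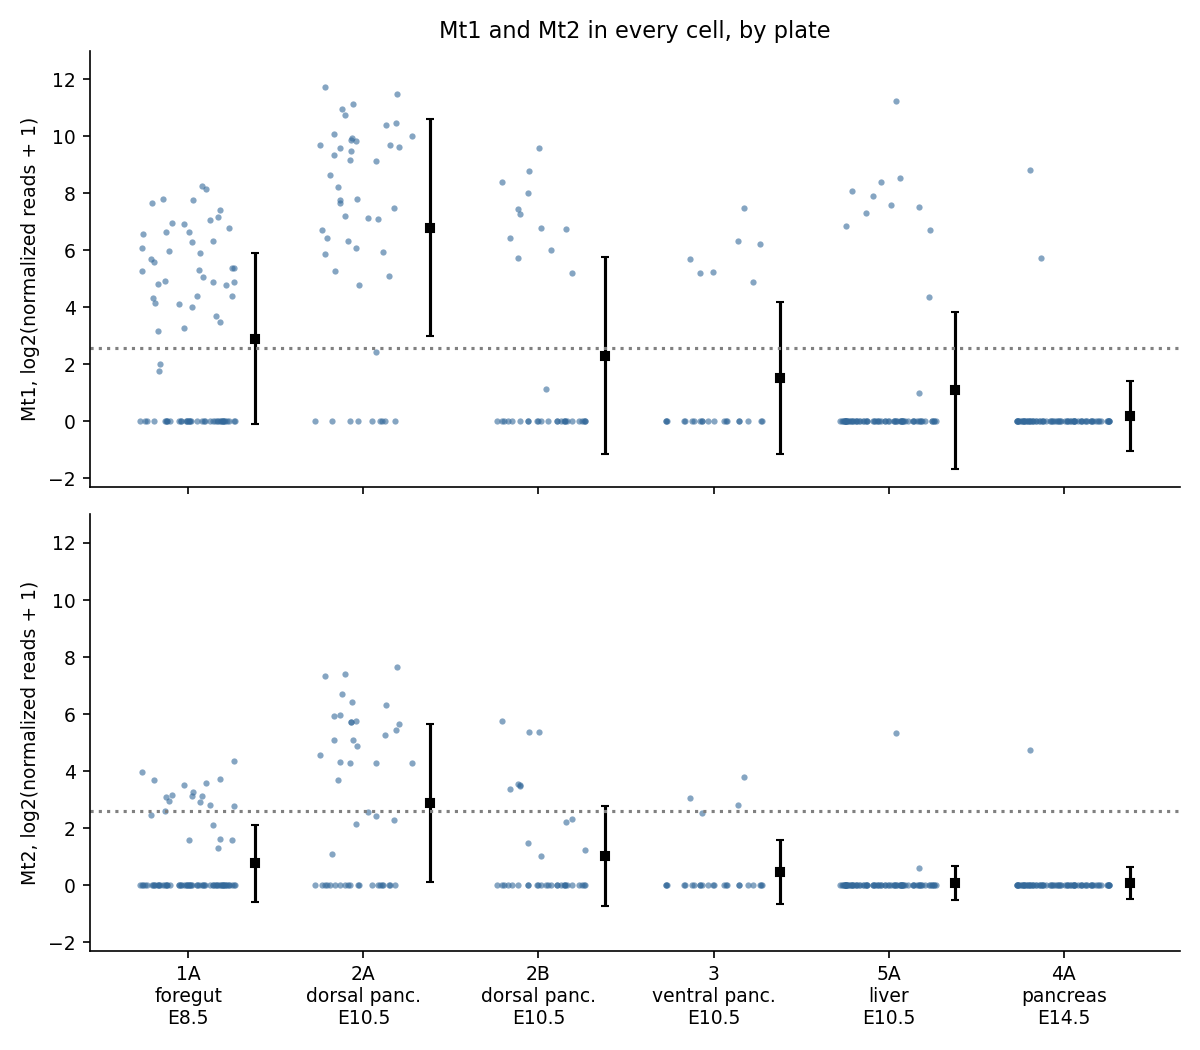
Each point is 1 cell, with Mt1 above and Mt2 below, both as log2(normalized reads + 1). Squares and bars are the mean and SD over cells, bars running below 0 where the SD exceeds the mean, and the dotted line marks 5 normalized reads. Plate 2A is the plate where most cells lie above the line for Mt1, with a median of 7.71.

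Mt2 was found almost only beside Mt1. Over all plates 48 cells had both genes, 63 had Mt1 alone, 3 had Mt2 alone and 232 had neither. The 3 cells with Mt2 alone held Mt2 at 3.70 in plate 1A, 5.27 in plate 2A and 3.50 in plate 2B. Within plate 2A, Mt2 was detected in 1 of 9 cells without Mt1, 0 of 2 with Mt1 below 5, 2 of 15 with Mt1 from 5 to under 8, 11 of 13 from 8 to under 10 and 9 of 9 from 10 upward. Mt2 averaged 1.08 ± 1.72, 4.40 ± 2.11 and 6.24 ± 1.16 (SD over cells) in the last 3 of these ranges. The lowest of the 9 cells with the most Mt1 held Mt2 at 4.27, above most cells of the range from 5 to under 8, whose highest cell was at 4.87.

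Per kilobase of transcript, which allows levels of different genes to be compared, plate 2A had a mean of 1064 normalized reads of Mt1 and 58.2 of Mt2, a ratio of 18.3. The same ratio of means was 18.4 in plate 1A and 12.9 in plate 2B, lay between these in plates 3 and 4A, and was 103 in plate 5A, where 1 cell carried the Mt2 reads. In the 48 cells with both genes the ratio per kilobase had a median of 14.3 and ran from 1.40 to 62.3, so Mt1 exceeded Mt2 in 48 of 48. Pearson's r between both levels was 0.68 over the 48 cells of plate 2A, 0.76 over 38 cells of plate 2B, 0.60 over 82 cells of plate 1A and 0.59 over 27 cells of plate 3. These correlations are descriptions over cells that share a plate and a library preparation.

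**Figure D2:**
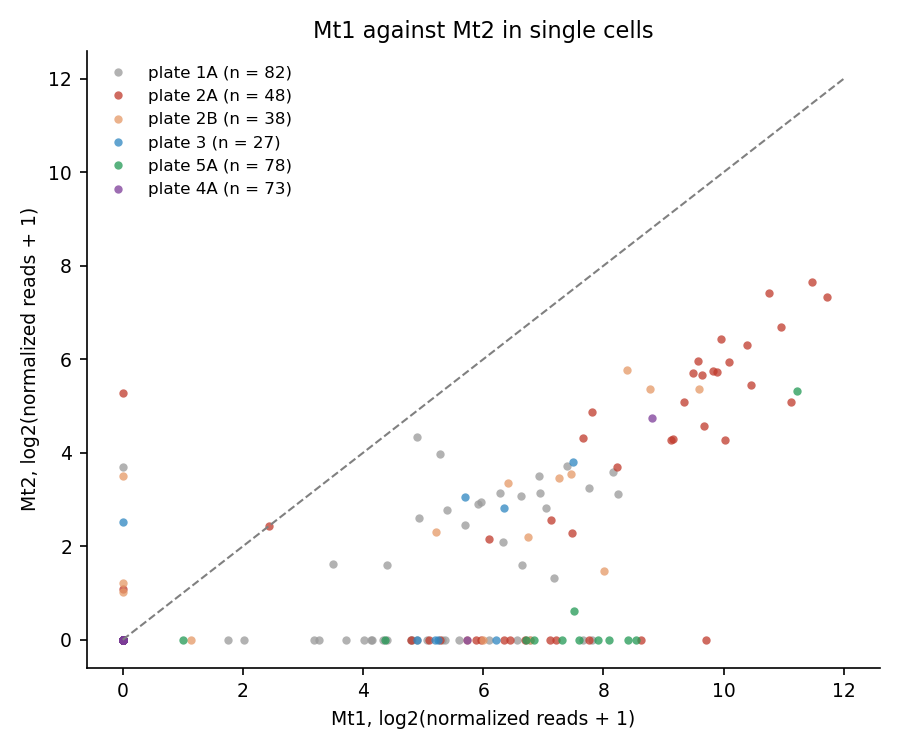
Each point is 1 cell, with its Mt1 level on the horizontal and its Mt2 level on the vertical axis, coloured by plate. Points lie below the dashed line of equal levels except for the few cells on the vertical axis, 1 cell on the line itself and the cells without either gene at the origin, and the cells with Mt1 of 10 or more hold Mt2 of 4.27 or more.

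The cells with Mt1 in the pancreas plates were nearly all epithelial. At least 3 epithelial markers were found in 37 of 38 cells with Mt1 of plate 2A and 43 of 48 of all its cells, in 12 of 12 and 27 of 38 in plate 2B, in 2 of 2 and 13 of 73 in plate 4A, and in 7 of 7 in plate 3, where every cell had them. Cells with Epcam, an adhesion molecule of epithelia, and fewer than 3 endocrine markers had Mt1 in 28 of 29 cases in plate 2A, 11 of 17 in plate 2B and 7 of 25 in plate 3. Cells with Col3a1, a collagen of mesenchyme, had Mt1 in 1 of 101 cases over all plates and Mt2 in 0 of 101. By plate, Mt1 was found in 1 of 6 Col3a1 cells of plate 2A, 0 of 16 of plate 2B, 0 of 19 of plate 5A, 0 of 58 of plate 4A and 0 of 2 of plate 1A. A count of 0 of 58 allows a share of up to 5.17%, and 0 of 16 allows up to 18.8%, counting error only. Cells with Mt1 also differed in level from plate to plate: their median was 9.12 in plate 2A, 6.78 in plate 2B and 5.70 in plate 3, counting every cell with a read of Mt1.

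Within these Epcam cells the 3 pancreas plates of E10.5 still differed. Mt1 ran from 0 to 11.72 with a median of 9.64 in plate 2A, from 0 to 9.59 with a median of 6.42 in plate 2B, and from 0 to 7.49 with a median of 0 in plate 3. The means were 9.05 ± 2.22 (SD over 29 cells), 4.81 ± 3.67 (17 cells) and 1.64 ± 2.73 (25 cells). Of the 29 cells of plate 2A, 24 lay above the highest cell of plate 3 and 15 above the highest cell of plate 2B, while 4 of the 17 cells of plate 2B lay above the highest cell of plate 3. Both dorsal plates thus lay above the ventral plate, by 7.41 for plate 2A and 3.17 for plate 2B, and they differed from each other by 4.24. The difference between plates with the same labels was larger than that between plate 2B and the ventral plate, so dorsal against ventral origin and plate cannot be told apart.

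Mt2 in the same Epcam cells had medians of 5.10 in plate 2A, 1.46 in plate 2B and 0 in plate 3, and was detected in 22 of 29, 6 of 17 and 3 of 25. Prox1 itself, the gene whose reporter was sorted, averaged 9.94 ± 2.66, 8.95 ± 2.09 and 9.70 ± 0.97 (SD over cells) in these plates, a narrower spread of means than that of Mt1. Median depth was 826460, 935258 and 872181 reads, median genes 4264, 5160 and 3820, and median mitochondrial share 0.875%, 1.34% and 1.03%. Over the 29 cells of plate 2A, Pearson's r of Mt1 was -0.02 with the number of genes, -0.19 with reads and 0.18 with the mitochondrial share. Over the 17 cells of plate 2B it was -0.44, -0.44 and 0.19, and over the 25 cells of plate 3 it was 0.14, 0.24 and -0.01. The part of these measures in the differences between plates was not tested.

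Cells with at least 3 endocrine markers had less Mt1 than the other Epcam cells in plates 2A and 2B. In plate 2A it was found in 9 of 13 of them, at a mean of 4.45 ± 2.86 (SD) and a highest level of 7.80, below the median of 9.64 among the other Epcam cells. In plate 2B it was found in 1 of 8, against 11 of 17 of the other Epcam cells. In plate 4A it was found in 1 of 10 and in 1 of the 2 other Epcam cells, too few to compare. Among these endocrine cells, those with Gcg, the glucagon gene, had Mt1 in 4 of 7 cases in plate 2A and 0 of 7 in plate 2B, which allows a share of up to 42.9%. Mt2 was found in 1 of 13 of the endocrine cells of plate 2A.

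**Figure D3:**
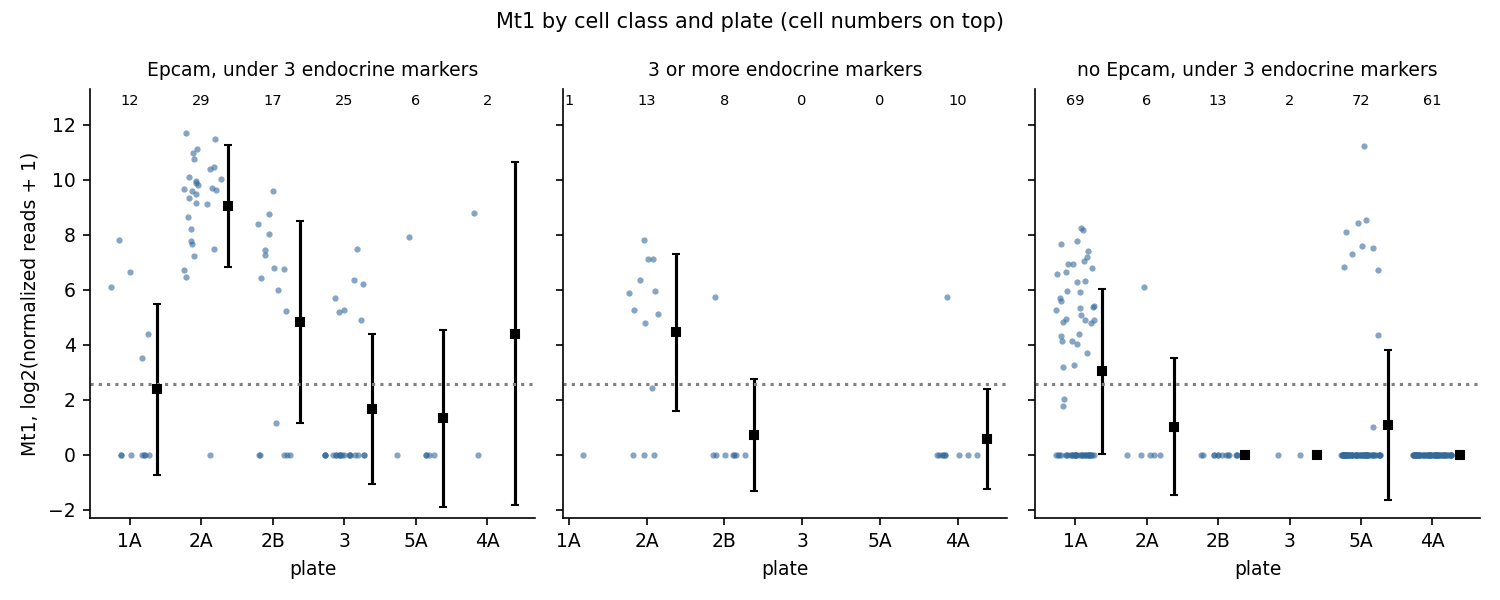
Mt1 as log2(normalized reads + 1) in every cell by plate, split into Epcam cells with fewer than 3 endocrine markers, cells with 3 or more, and the rest. Squares and bars are the mean and SD over cells. Among the Epcam cells, 28 of 29 in plate 2A and 7 of 25 in plate 3 had Mt1, and none of the 61 cells of the rest in plate 4A did.

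Outside the pancreas, Mt1 kept other company. In plate 1A it was found in 35 of 59 cells with neural tube markers, at a mean of 3.50 ± 3.01 (SD), and in 6 of 23 cells without, at 1.33 ± 2.38. Cells with Rfx4, a transcription factor of the neural tube, had it in 32 of 52 cases, cells without Rfx4 in 9 of 30, and cells with cardiac markers in 2 of 11. In the liver plate 5A, Mt1 was found in 9 of 49 cells with hepatoblast markers and 2 of 29 without. Cells with Afp, the fetal serum protein of hepatoblasts, had it in 9 of 48 cases, and the single highest liver cell, at 11.23, was among them. The 10 liver cells above the Mt1 limit of 5 lay at 6.72 or higher, 2 more lay at 4.36 and 1.00, and 66 were empty. In plate 4A both cells with Mt1, at 5.73 and 8.81, were among the 13 cells with epithelial markers, and 0 of 60 others had it.

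To describe what set cells with Mt1 apart, the cells of plate 2A with Mt1 of at least 5 were compared with those without a read of it. This left 37 Mt1-high and 9 Mt1-empty cells. Just inside the limit lay cells at 5.10 and 5.27, and just outside it lay 2 cells, at 4.80 and 2.44, which joined neither group. Of 8139 genes that 25% or more of the cells in either group expressed, 1251 were higher by at least 1 in Mt1-high cells (15.4%) and 2318 were lower (28.5%), and the median difference was -0.30. The limit of 1 is a size, not a test. These percentages are the background for every count from this plate, and since the groups were formed by Mt1 itself the counts describe the split and support nothing.

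The 9 Mt1-empty cells were of several types. Of them, 5 had at least 3 epithelial markers, 2 pancreatic progenitor markers, 3 endocrine markers and 2 mesenchyme markers. In 5 of them Col3a1 was detected, at 5.95 to 9.44, and 3 others had 9, 10 and 12 endocrine markers. The remaining cell had Epcam at 10.12 and no Col3a1, and was the cell with Mt2 at 5.27. Of the 37 Mt1-high cells, 36 had epithelial markers, 34 pancreatic progenitor markers, 8 endocrine markers and 1 mesenchyme markers. Summed mesenchyme marker levels ran from 0 to 10.09 with a median of 0 in Mt1-high cells and from 0 to 10.38 with a median of 9.56 in Mt1-empty cells. Of the 10 mesenchyme markers, Col3a1 was detected in 1 of 37 and 5 of 9 cells and Pdgfra in 1 of 37 and 5 of 9. Depth was alike, with medians of 847711 and 846703 reads, while median genes were 4464 and 5003. The part of cell type in the differences below was not tested.

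The 12 genes most above in Mt1-high cells were Cldn6, Sox9, Nepn, Krt18, Rasgrf1, Grb7, Irs4, Vtn, Espn, Cpm, Upp1 and Sfrp5, with differences from 4.81 to 7.08. Cldn6, a claudin of embryonic tight junctions, ran from 0 to 12 with a median of 10.41 in Mt1-high cells and from 0 to 8.87 with a median of 0 in Mt1-empty cells. It was detected in 36 of 37 and 3 of 9 cells, and the groups overlapped. Sox9, a transcription factor of pancreatic progenitors, had medians of 10.20 and 0 and was detected in 33 of 37 and 2 of 9. Nepn, an extracellular leucine-rich repeat protein, reached 13.81, with medians of 10.87 and 0, and was detected in 29 of 37 and 2 of 9. Grb7, a signalling adaptor, was detected in 28 of 37 Mt1-high cells and in none of the 9 others. Krt18 is a keratin, Vtn the matrix protein vitronectin, Espn an actin bundler and Sfrp5 a secreted Wnt antagonist.

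The 12 genes most below were Psat1, Slc7a2, Pdgfra, Aldh18a1, Gpt2, Bcat1, Ntf3, Pmpcb, Clip1, Hoxb1, Mlx and Gng12, with differences from -4.08 to -5.40. Psat1, an enzyme of serine synthesis, had a median of 0 in Mt1-high and 9.62 in Mt1-empty cells and was detected in 11 of 37 and 7 of 9. Slc7a2, a transporter of basic amino acids, had medians of 0 and 7.93 and was detected in 9 of 37 and 8 of 9. Aldh18a1 makes a precursor of proline, Gpt2 and Bcat1 are transaminases of alanine and of branched-chain amino acids, and Pdgfra is a growth factor receptor of mesenchyme. Restricted to Epcam cells, with 35 against 4 cells, Pdgfra, Bcat1 and Hoxb1 had a difference of 0, Psat1 of -1.62, Cldn6 of 4.21 and Sox9 of 9.32. Sox9 was at 0 in all 4 of these Mt1-empty cells, and 3 of them had 9, 10 and 12 endocrine markers. Cell type thus still differed between the restricted groups, and its part was not tested.

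Plate 2B, which played no part in choosing these genes, had 12 Mt1-high and 25 Mt1-empty cells. All of the 12 genes above in plate 2A were above by at least 1 in plate 2B, with a median of 5.90, against a background there of 15.2% of 9143 genes. Of the 12 genes below, 11 could be compared and 9 were below by at least 1, against a background of 27.4%. Nepn was detected in 12 of 12 Mt1-high and 1 of 25 Mt1-empty cells of plate 2B, at 8.94 to 13.34 in the former, and the difference was 11.54. Vtn was detected in 12 of 12 and 6 of 25, and Cldn6 in 12 of 12 and 8 of 25. The Mt1-empty cells of that plate had Col3a1 in 16 of 25 cases, at least 3 endocrine markers in 7, at least 3 epithelial markers in 14 and Epcam in 12. All 12 Mt1-high cells had epithelial markers and Epcam. The split of plate 2B thus also parts cell types, whose part in these differences was not tested.

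**Figure D4:**
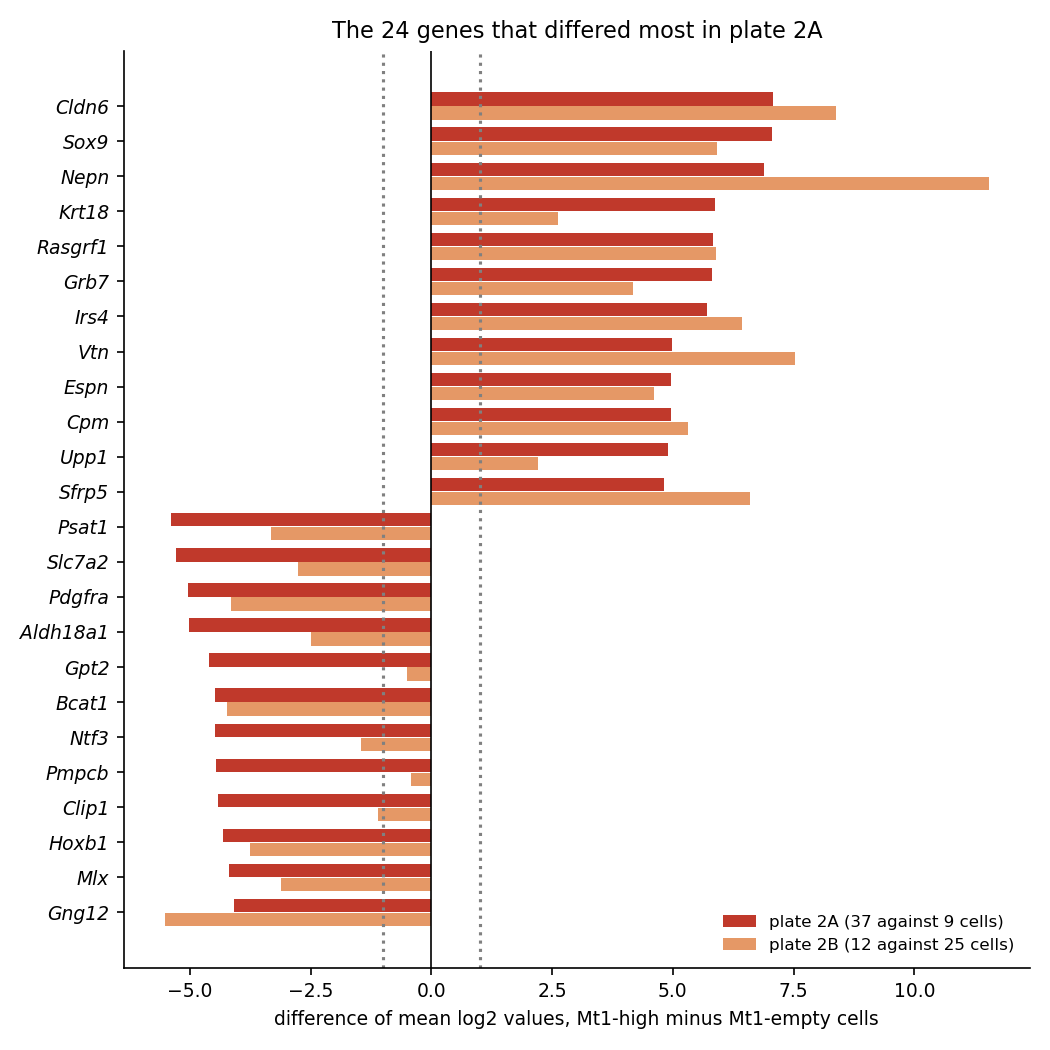
Bars give the difference of mean log2(normalized reads + 1) between Mt1-high and Mt1-empty cells for the 24 genes with the most extreme differences in plate 2A, in plates 2A and 2B. Dotted lines mark differences of 1 either way. In plate 2B all 12 upper genes lie beyond 1, and Gpt2 and Pmpcb are the lower genes that stay within it among those compared.

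The same genes were compared with Mt1 in the other plates. In plate 3, with 6 against 20 cells that were all epithelial, 7 of the 11 upper genes that could be compared were higher by at least 1, with a background of 38.4% higher and 15.9% lower. The most distant was Irs4, an adaptor of insulin receptor signalling, by 3.82. None of its 4 lower genes was lower by 1. In plate 1A, with 26 against 39 cells, of 6 upper genes Grb7 was higher, by 1.07 (background 6.52%), and Krt18 was lower, at a mean of 2.75 against 4.03 (background 11.9%). Of 9 lower genes Pmpcb was lower, at -1.81. Krt8, another keratin, averaged 1.42 in Mt1-high and 3.79 in Mt1-empty cells of that plate. In plate 5A, with 10 against 66 cells, of 4 upper genes Cpm and Vtn were higher, by 3.08 and 1.44 (background 27.8%), and Krt18 was lower, at 2.67 against 5.07 (background 17.5%). Of 6 lower genes, Psat1 and Slc7a2 were above there by 4.00 and 1.77, and Pmpcb, Clip1 and Gng12 were below, at -1.02, -1.17 and -1.20. Plate 4A had only 2 Mt1-high cells and was not compared.

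The genes whose levels followed Mt1 most closely over the 48 cells of plate 2A were Cldn6 (Pearson's r 0.77), Sox9 (0.74), Krt18 (0.70), Espn (0.70), Onecut1 (0.67) and Krt8 (0.67). Among 7404 genes compared, Mt2 came in rank 5 with 0.68. These points span several cell types, 29 of them Epcam cells with fewer than 3 endocrine markers, 13 endocrine cells and 6 others. Within the 29 Epcam cells the same genes had r of 0.50, 0.62, 0.84, 0.36, 0.53 and 0.48, and Mt2 had 0.44. Over the 17 such cells of plate 2B r was 0.75, 0.66, 0.58, 0.67, 0.84 and 0.61, and 0.79 for Mt2. For the same 6 genes r was lower in the other plates. Over the 27 cells of plate 3 it was 0.45, 0.26, 0.21, -0.02, 0.15 and 0.18. Over the 82 cells of plate 1A it was -0.20, 0.08, -0.17, -0.01, -0.11 and -0.26. Over the 78 cells of plate 5A it was 0.17, 0.12, -0.16, 0.14, 0.11 and -0.05.

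Onecut1, a transcription factor of pancreas and liver progenitors, went with Mt1 among the Epcam cells of plate 2B. Mt1 was found in 11 of the 11 with Onecut1, at 5.22 to 9.59. It was found in 0 of the 6 without Onecut1, whose highest level was 1.14. Onecut1 was picked for its likeness to Mt1, and this split was chosen after values were seen. How many of all genes part these cells as cleanly was not counted, so the split is a description. In plate 2A, Mt1 was found in 24 of 24 with Onecut1, at 6.45 to 11.72, and 4 of 5 without. In plate 3 it was found in 5 of 17 and 2 of 8, so Onecut1 did not go with Mt1 there. Pdx1, the master regulator of the pancreas, gave a similar picture in plate 2B, where Mt1 was found in 10 of 11 Epcam cells with Pdx1 and 1 of 6 without. In plate 2A it was found in 19 of 19 with Pdx1 and 9 of 10 without, at medians of 9.15 and 9.95. Mt2 there was found in 12 of 19 with Pdx1 and in 10 of 10 without, at medians of 4.30 and 5.73.

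The known regulator and the zinc partners of metallothioneins differed little with Mt1 in plate 2A. Mtf1 had a mean of 1.63 in Mt1-high and 1.71 in Mt1-empty cells and was detected in 11 of 37 and 3 of 9. Slc30a1, the zinc exporter that is also a target of Mtf1, was detected in 1 of 37 and 0 of 9. Of 20 genes of zinc transport and sensing, 10 could be compared, and 1 was higher by at least 1 (Slc39a9, a zinc importer, by 1.26) and 1 lower (Slc39a10, at 3.78 against 4.83), with a list median of 0.10 against -0.30 over all genes. In plate 2B the list had 2 higher and 4 lower of 13, near the background of 15.2% and 27.4%, with a median of -0.60. Mtf1 was among the higher, at 3.13 against 1.78. Mtf1 averaged 1.59 against 2.68 in plate 1A (7 of 26 and 19 of 39 cells) and 2.37 against 0.41 in plate 5A (3 of 10 and 4 of 66). Of 9 copper genes in plate 2A, 2 were higher and 1 lower with a median of 0.08. Atp7b, a copper pump, was higher by 3.05 in plate 2A, detected in 35 of 37 and 5 of 9 cells, and by 4.49 in plate 2B, in 11 of 12 and 6 of 25.

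Most stress lists had medians below 0 in plate 2A, where all genes had a median of -0.30, with 15.4% higher and 28.5% lower. Medians of p53 targets, heat shock and immediate early genes were -0.44, -0.42 and -0.33, near that of all genes. Targets of Nrf2, the oxidative stress regulator, had 0 higher and 2 lower of 8 in plate 2A, with a median of -0.37. Of 5 glucocorticoid response genes compared, 1 was higher and 3 lower, with a median of -1.03 in plate 2A and -1.13 in plate 2B. Without the filter on detection the median in plate 2A was -0.025. Nr3c1, the glucocorticoid receptor, was detected in 2 of 37 Mt1-high and 3 of 9 Mt1-empty cells of plate 2A. Hypoxia response genes had 3 higher and 1 lower of 18 with a median of 0.20, and Adm, a secreted peptide, was higher by 3.06. Genes of the Atf4 and unfolded protein response had 1 higher and 12 lower of 19 with a median of -1.33, among them Psat1, Slc3a2 and Ddit3, which averaged 1.91, 5.01 and 1.59 in Mt1-high cells and 7.31, 8.76 and 4.61 in Mt1-empty cells. This list had 2 higher and 6 lower of 14 in plate 2B, with a median of -0.39. Over all genes of that plate 15.2% were higher and 27.4% lower. In plate 5A the list had 7 higher and 1 lower of 12, with a median of 1.23. Over all genes of that plate 27.8% were higher and 17.5% lower. In the Epcam cells of plate 2A the median of the Atf4 list was -0.16.

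The marker lists carried the larger medians. In plate 2A all 10 epithelial genes were higher, with a median of 4.42, 7 of 8 pancreatic progenitor genes were higher, with a median of 3.11, and 8 of 10 endocrine genes were lower, with a median of -1.45. In plate 2B the same lists had 10 of 10 higher, 9 of 10 higher and 7 of 9 lower, with medians of 4.89, 4.58 and -2.36. The background there was 15.2% higher and 27.4% lower. In plate 5A, 14 of 16 hepatoblast genes were higher in Mt1-high cells (background 27.8%), with a median of 2.56. Afp was among them, by 3.49, and Alb, by 2.16. In plate 1A, 4 of 7 neural tube genes were higher (background 6.52%), with a median of 1.68. Of the cardiac genes there, 3 of 3 were lower (background 11.9%), with a median of -2.55. Cell cycle lists stayed near all genes in plate 2A, with medians of -0.01 for S phase and -0.21 for G2/M. Among Epcam cells of that plate they were 2.82 and 3.70, with 4 Mt1-empty cells, 3 of which had endocrine markers. Prox1 averaged 9.91 in Mt1-high and 7.27 in Mt1-empty cells of plate 2A, and 9.60 and 7.41 in those of plate 2B, but among Epcam cells of plate 2A its difference was -0.79.

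**Figure D5:**
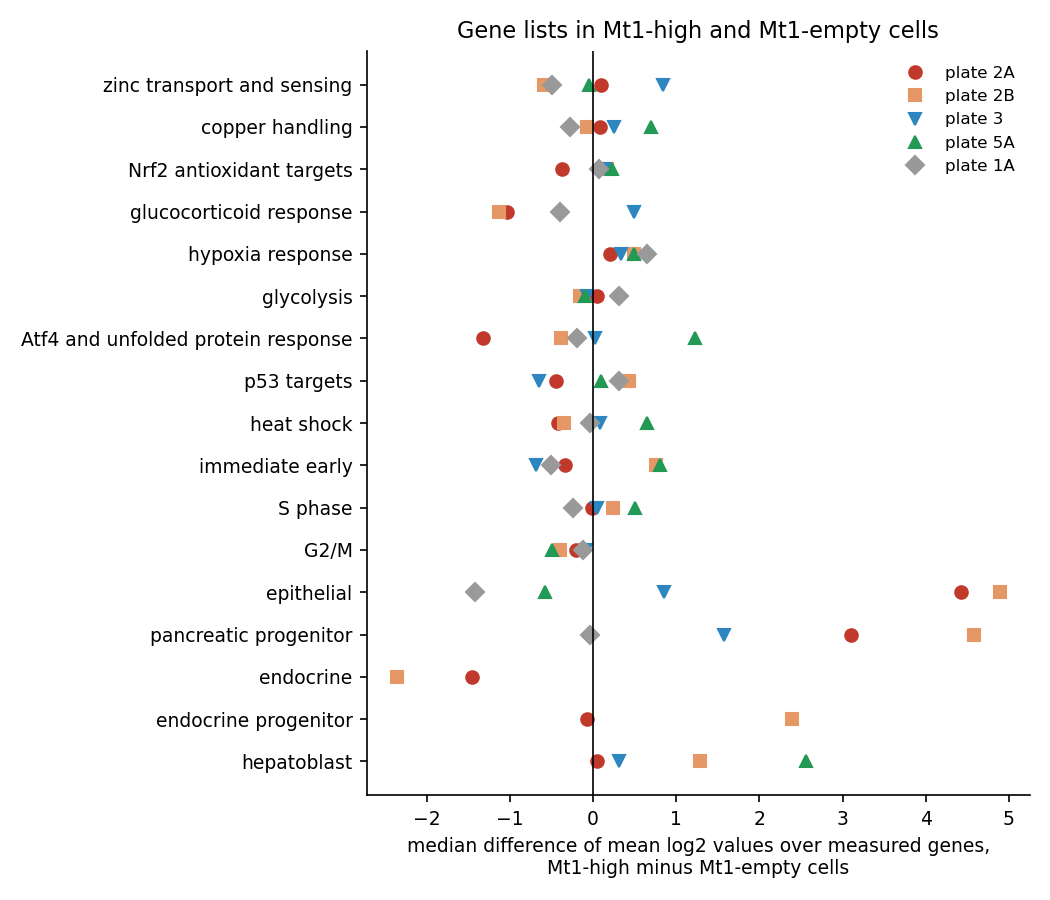
Each symbol is the median, over the genes of a list that could be compared, of the difference of mean log2(normalized reads + 1) between Mt1-high and Mt1-empty cells of a plate, shown where at least 3 genes could be compared. The epithelial and pancreatic progenitor lists lie far to the right in plates 2A and 2B (4.42 and 4.89, 3.11 and 4.58). Apart from the glucocorticoid and Atf4 lists, every list that is not a marker list lies within 1 of 0 in all 5 plates.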

How the data were processed

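Single-cell Smart-seq2 libraries were prepared with the Nextera XT kit from cells sorted into plates, per the labels' protocols. Tools named in the submitters' processing notes are Cufflinks, Cuffdiff 2.2.1 and STAR 2.5.3, with the build GRCm38. The counter, annotation and cell filters were not given in the sources used here. What the authors deposited are log2 values with empty entries for genes without reads. Undoing the log2 and 1 factor per cell gave whole reads for 1647510 of 1647530 values (tolerance 0.01), so values are read as log2(reads / size factor + 1), a unit settled from the values. Empty entries were set to 0.

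Mt1 and Mt2, the gene lists and the limits were chosen with earlier results of these data known. Means, SDs, shares of cells (detection at 5 normalized reads, exact Clopper-Pearson 95% intervals; a share of 0 is limited by 3 counts) and differences of means were computed with Python 3.11.15, numpy 2.4.6, pandas 2.3.3 and scipy 1.17.1. No test was run, since each plate is 1 sample. A gene was compared where 25% or more of the cells in either group expressed it, with 1 as the size limit. Named genes are the 12 highest and 12 lowest in plate 2A and the 6 most like Mt1 (leaving out genes that are mitochondrial, ribosomal, predicted or Y-linked, and Xist), up to 4 members of a list, and Mt1, Mt2, Mt3, Mt4, Mtf1, Slc30a1 and Prox1. Onecut1 and Pdx1 splits, Gcg splits and the Col3a1 count were chosen after values were seen. Alternatives were other pseudocounts, scalings, limits, thinning to 500000 reads (seed 1) and subsets of cells. The calculation of differences was run on simulated cells with planted changes. Those cells had no cell types and were not split by Mt1, so this does not bear on the split of plate 2A. The series describes 452 cells, of which those that passed the submitters' quality check are here. Promoter windows are from RefSeq.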

Additional observations from a re-analysis of the deposited data

Results flagged for a closer look

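A pair of gene lists had median differences of at least 1 between Mt1-high and Mt1-empty cells in opposite directions in different plates. The difference between plates was not tested, since each plate is 1 sample. Epithelial genes had a median of 4.42 in plate 2A and of -1.42 in plate 1A. In plate 1A, 3 of the 4 genes compared were lower (Krt8, Spint1 and Krt18), against a background of 11.9%. Genes of the Atf4 and unfolded protein response had a median of -1.33 in plate 2A and of 1.23 in plate 5A. Psat1 differed by -5.40 in plate 2A and by 4.00 in plate 5A, where its mean was 9.23 in Mt1-high and 5.23 in Mt1-empty cells.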

How the results depend on the processing

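Plate 2A stayed above each plate it was set against under the scalings, the pseudocount and the subset tried, while the order of the others did not hold: among Epcam cells Mt1 averaged 4.81 in plate 2B and 2.37 in plate 1A, and 4.40 in the 2 cells of plate 4A. With a pseudocount of 10, which shrinks low values by construction, plate 2A exceeded plates 1A, 2B, 3, 5A and 4A in mean Mt1 by 2.84, 2.92, 3.47, 3.56 and 4.08 (3.91, 4.50, 5.28, 5.70 and 6.60 with a pseudocount of 1), and in mean Mt2 exceeded plates 1A, 3, 5A and 4A by 1.06, 1.14, 1.23 and 1.24. In Epcam cells with fewer than 3 endocrine markers, a subset chosen after seeing the data, plate 2A exceeded plate 3 by 7.41 for Mt1 and 3.83 for Mt2, and shares in plates 2A and 2B were 96.6% and 64.7% for Mt1 and 75.9% and 35.3% for Mt2. Counting only levels of 5 or more gave Mt1 in 31.7% of cells in plate 1A and 31.6% in plate 2B, and Mt2 in 0% in plates 1A, 3 and 4A.

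In the split of plate 2A, the pseudocount of 10 left 491 genes higher and 897 lower of 8139 compared. With a pseudocount of 1 these were 1251 and 2318 of the same 8139. Among Epcam cells, 35 against 4, 2486 of 9788 genes compared were higher. Detection in 1 of the 4 empty cells is enough for a gene to be compared there, so this count and 1251 are not directly comparable. Medians were -0.16 for the Atf4 list, 2.82 for S phase and 3.70 for G2/M genes. The cause was not tested, and only 4 cells stand on the empty side, 3 of them with endocrine markers. Prox1, higher by 2.65 in all cells, differed by -0.79 in Epcam cells and by -0.066 with groups formed by Mt2. Without a filter the glucocorticoid median was -0.025. Of 251 values for named genes under alternatives, 156 stayed within 1 of the main value and 93 moved by 1 or more. The other 2 turned against a difference of 1 or more (both Prox1). A difference that fell away without changing sign counts as moved, as for Pdgfra, Bcat1 and Hoxb1 in Epcam cells. No paired analysis was possible because the labels give cells no replicate number and no test was run.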

Other observations

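By well position in plate 2A, Mt1 was found in 7 of 8 cells of row A, 7 of 11 of row B, 9 of 10 of row C, 9 of 11 of row D and 6 of 8 of row E, and in 21 of 28 cells of columns 1 to 6 and 17 of 20 of columns 7 to 12. In plate 2B it was found in 1 of 8, 5 of 9, 2 of 11, 3 of 7 and 1 of 3 cells of these rows. Of the 9 Mt1-empty cells of plate 2A, 4 were in row B. The part of well position was not tested.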
